A study of Mus musculus with 2 samples.

Results

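The interferon-induced transmembrane (Ifitm) genes Ifitm1, Ifitm2, Ifitm3 and Ifitm6 were followed in single spleen cells of a wild-type mouse and a sickle cell disease (SCD) mouse, as 4 of the 26124 genes in the count matrices. They were chosen by their levels across neutrophil stages, monocytes and dendritic cells (DCs) and by their differences between SCD and wild-type, so the values below describe the 4 genes, and no test was made on them. Genes were matched by symbol, and all 4 were found in both matrices. The files also hold Ifitm5, Ifitm7 and Ifitm10, which had at most 615 unique molecular identifiers (UMIs, each counting 1 captured RNA molecule) in a library and were not followed.

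The study asked how the hemolysis of sickle cell disease bears on splenic myeloid cells. Both mice were Berkeley-type animals of 12 to 16 weeks on a mixed genetic background and had received no treatment. Both were homozygous for Hbatm1Paz, an allele without working mouse alpha globin. Hba-a1 and Hba-a2 were still among the leading genes of the erythroid-like cluster (54 wild-type and 51 SCD cells). The source of these counts was not tested. The wild-type mouse was heterozygous for Hbbtm1Tow and hemizygous for Tg(HBA-HBBs)41Paz and did not sickle, so it carried 1 working copy of the mouse beta globin locus beside the human transgene. The SCD mouse was homozygous for Hbbtm1Tow and for Tg(HBA-HBBs)41Paz, and its red cells sickle. Red cells were lysed, DCs were enriched by negative selection with magnetic beads, and 1 10x Chromium 3′ library was made from each mouse. The enrichment therefore bears on how many cells of each type were captured. The labels do not give the sex of either mouse, so animal, sex and genotype cannot be told apart.

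IFITM proteins are small membrane proteins that interferons induce in many cells. IFITM3 sits mainly in endosomes and hinders the fusion of viruses with the endosomal membrane, whereas IFITM1 is found more at the cell surface, and IFITM2 is close in sequence and place to IFITM3. Ifitm6 is a mouse family member known mostly from myeloid cells. Neutrophils mature from granule-forming promyelocytes through dividing precursors and immature cells with secondary granules to mature cells that carry Cxcr2.

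The 4 genes lie within 63.1 kb of chromosome 7 (chr7:140954837-141017924, build GRCm38, GENCODE annotation), and all are annotated as protein-coding. Ifitm1 (ENSMUSG00000025491, chr7:140967221-140969825) lies on the plus strand. Ifitm2 (ENSMUSG00000060591, chr7:140954837-140955987), Ifitm3 (ENSMUSG00000025492, chr7:141009586-141010770) and Ifitm6 (ENSMUSG00000059108, chr7:141015699-141017924) lie on the minus strand. Ifitm2 overlaps Gm45717, a gene model on the same strand that also covers Ifitm5, whereas no other annotated gene overlaps Ifitm1, Ifitm3 or Ifitm6. Of the 31-base words in the last 400 bases of Ifitm3, where a 3′ library reads, 9.46% also occur in Ifitm1 and 4.86% in Ifitm2, whereas Ifitm6 shared none with the other members, so reads in those stretches could be lost or counted for a neighbour.

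The promoters are shown because interferon acts on such genes through short sequence elements near their start. Each window, from RefSeq on GRCm38.p6, runs from 250 bases before to 50 bases after the start that RefSeq annotates, 5′ to 3′ on the strand of the gene. For Ifitm1 and Ifitm6 that start lies inside the GENCODE gene span given above, and the whole window with it, so sequence before the outermost annotated start of these 2 genes was not searched. Capitals mark the core of the interferon-stimulated response element, searched on both strands as GAAA, any 2 bases and GAAA again. In order, the windows are chr7:140967826-140968125 (plus), chr7:140955912-140956211 (minus), chr7:141010695-141010994 (minus) and chr7:141016843-141017142 (minus).
Ifitm1: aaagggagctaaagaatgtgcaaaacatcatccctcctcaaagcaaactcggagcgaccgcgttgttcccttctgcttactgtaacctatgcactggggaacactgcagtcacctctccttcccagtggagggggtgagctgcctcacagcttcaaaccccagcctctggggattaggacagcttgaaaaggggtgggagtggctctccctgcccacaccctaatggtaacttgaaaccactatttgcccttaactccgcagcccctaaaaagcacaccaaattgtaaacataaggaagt
Ifitm2: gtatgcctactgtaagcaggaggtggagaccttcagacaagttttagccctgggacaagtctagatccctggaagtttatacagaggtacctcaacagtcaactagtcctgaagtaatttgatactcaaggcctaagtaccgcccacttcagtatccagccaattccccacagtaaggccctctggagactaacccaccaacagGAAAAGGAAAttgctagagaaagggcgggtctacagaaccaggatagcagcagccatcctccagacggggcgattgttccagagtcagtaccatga
Ifitm3: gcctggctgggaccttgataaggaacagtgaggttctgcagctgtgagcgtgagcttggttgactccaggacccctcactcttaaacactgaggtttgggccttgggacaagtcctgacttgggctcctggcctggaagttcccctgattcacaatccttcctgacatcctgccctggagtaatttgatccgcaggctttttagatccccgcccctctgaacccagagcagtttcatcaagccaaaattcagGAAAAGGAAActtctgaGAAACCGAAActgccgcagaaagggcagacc
Ifitm6: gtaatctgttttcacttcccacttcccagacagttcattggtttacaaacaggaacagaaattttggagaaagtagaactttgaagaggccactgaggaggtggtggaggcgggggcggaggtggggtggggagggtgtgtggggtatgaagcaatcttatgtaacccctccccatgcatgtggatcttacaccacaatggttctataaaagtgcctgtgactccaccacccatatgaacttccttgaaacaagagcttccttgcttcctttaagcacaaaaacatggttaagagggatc

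The Ifitm3 window held this element at bases 3 to 12 and 20 to 29 after the start, and the Ifitm2 window held it once, at bases -46 to -37. The letters did not occur in the windows used for Ifitm1 and Ifitm6, and 3.44% of the 32851 promoter windows of the table held them. TTCNNNGAA, the core of the gamma interferon activation site, occurred in the windows of Ifitm3 (bases 14 to 22, overlapping the later of the elements above) and Ifitm6 (bases -10 to -2) and in 8.30% of all windows. TATAAA occurred in the Ifitm6 window at bases -46 to -41 and, on the other strand, in the Ifitm2 window, and in 13.6% of all windows. These are matches of letters only.

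The filters kept 9423 of the 10845 cells in the wild-type matrix (86.9%) and 10635 of the 13447 in the SCD matrix (79.1%), with 60845405 and 99608356 UMIs and a median of 4884 and 8282 UMIs per cell. Cells were grouped by clustering without the Ifitm genes and named from marker genes, and each class is a group of cells like the named type. A cluster took the type of its highest-scoring marker list, so that score gives no separate support for the name. Names of finer classes also rested on limits for dividing markers, stage markers and single genes. In all, 551 wild-type and 606 SCD cells (5.85% and 5.70%) stayed unnamed. The deposited libraries shared 88 barcodes, 22 of them among kept cells, and the number expected by chance was not computed. UMIs were summed over the cells of a class and are given as CPM, the UMIs of the gene per 1000000 UMIs of that class, with 95% intervals (exact Poisson for levels, exact conditional binomial for ratios) that cover counting error only, because each group is 1 mouse. Since 3′ libraries count 1 end per RNA, CPM does not scale with gene length.

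Across all kept cells, Ifitm1 stood at 295 CPM in wild-type and 185 CPM in SCD, Ifitm2 at 1078 and 784 CPM, Ifitm3 at 1408 and 1552 CPM, and Ifitm6 at 556 and 1630 CPM. Ifitm6 ranked 221 among all genes in wild-type and 64 in SCD, where it was the most abundant member. The order of the other 3 members was the same in both libraries, with Ifitm3 above Ifitm2 and Ifitm2 above Ifitm1.

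In neutrophil-like cells (4335 wild-type, 7073 SCD) Ifitm1 and Ifitm2 were lower and Ifitm6 was higher in SCD. Ifitm1 was 910 CPM (95% interval 895 to 925) in wild-type and 243 CPM (239 to 247) in SCD, a log2 ratio of SCD over wild-type of -1.90 (-1.94 to -1.87). Ifitm2 followed it, with 2551 CPM (2526 to 2576) against 713 CPM (706 to 720) and a log2 ratio of -1.84 (-1.86 to -1.82). Ifitm6 went the other way, from 1125 CPM (1108 to 1141) in wild-type to 2322 CPM (2310 to 2334) in SCD, a log2 ratio of 1.05 (1.02 to 1.07). Ifitm3 was level, with 991 and 999.6 CPM and a log2 ratio of 0.01 (-0.01 to 0.04).
Thus 2 of the 4 members were lower and 1 was higher by at least 1 on the log2 scale in SCD neutrophil-like cells. Ifitm6 fell short of that size when single cells were named by their markers (0.97), at resolution 2 (0.97) and with at least 1000 genes per cell (0.69). Ifitm1 fell short of it with equal weight per cell (-0.90). Equal weight per cell and median-of-ratios scaling gave larger Ifitm6 ratios, listed with the other alternatives further below. Among the 2494 genes with at least 50 CPM and 20 UMIs in either library of the class, 22% were lower and 2.29% higher by that size, and their median log2 ratio was -0.41. Since the members were chosen for such differences, nothing is read from these shares. In bulk sums of this kind, fewer cells of a stage and less RNA per cell cannot be told apart, so the stages were taken next.

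The stage mix differed between the libraries. Mature neutrophil-like cells with high Il1b (the interleukin 1 beta gene) made up 85.1% of the neutrophil-like cells in wild-type (3689 cells) and 13.95% in SCD (987 cells). Immature cells were 7.15% of these cells in wild-type (310 cells) and 35.0% in SCD (2479 cells), and mature cells with low Il1b were 3.62% and 27.3% (157 and 1928 cells). The remaining cells were promyelocytes (16 and 221), dividing precursors (51 and 495) and cells between the immature and mature stages (112 and 963).

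Ifitm1 marked the end of maturation. In wild-type its level was 31.9 CPM in dividing precursors, 14.6 CPM in immature cells, 32.7 CPM between stages, 263 CPM in mature cells with low Il1b and 1558 CPM (1532 to 1584) in mature cells with high Il1b. In SCD the levels over the same 5 stages were 6.16, 10.3, 55.0, 680 and 3447 CPM (3369 to 3525). The promyelocyte-like class held only 2 Ifitm1 UMIs in wild-type, and no ratio is given there.
The SCD level was above the wild-type level in both mature classes, with log2 ratios of 1.37 (1.17 to 1.58) at low Il1b and 1.15 (1.10 to 1.19) at high Il1b, opposite in sign to the ratio over all neutrophil-like cells. Ifitm1 was the 1 member of 4 past a log2 ratio of 1 in each mature class, where 1.32% of 2050 expressed genes were higher and 0.78% lower by that size at low Il1b, and 1.63% of 2577 genes were higher and 0.815% lower at high Il1b. With counts scaled by library total before clustering, the Ifitm1 ratio of the class named high Il1b was 0.96. Between stages the log2 ratio was 0.75 (0.20 to 1.36). In the early classes, where Ifitm1 was scarce, it was -0.50 (-0.94 to -0.03) in immature cells and -2.37 (-2.97 to -1.76) in dividing precursors. The last value rests on 39 wild-type UMIs in 51 cells. With total count scaling the ratio in the class named immature was 0.12, but one of its 2 clusters (185 and 1582 cells) shared leading genes such as Gpr27 and Nt5e with the main cells between stages.

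Ifitm2 was higher at each later stage. Its wild-type levels were 245 CPM in promyelocytes, 251 CPM in dividing precursors, 413 CPM in immature cells, 529 CPM between stages, 1258 CPM at low Il1b and 4105 CPM (4063 to 4147) at high Il1b. The SCD levels in the same order were 259, 262, 380, 614, 1559 and 4659 CPM (4569 to 4751). In both libraries the intervals of the first and second of these stages overlap.
Within stages the libraries lay close, with log2 ratios from -0.12 in immature cells to 0.31 (0.22 to 0.40) at low Il1b and 0.18 (0.15 to 0.21) at high Il1b.

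Ifitm3 reached its plateau early. It stood at 162 CPM in wild-type and 192 CPM in SCD promyelocytes, and at 399 and 483 CPM in dividing precursors. From the immature stage on it stayed between 993 and 1337 CPM in wild-type and between 1087 and 1416 CPM in SCD. The log2 ratio within a stage ran from -0.04 to 0.28.

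Ifitm6 peaked in the middle of the sequence. In wild-type it was 235 CPM in promyelocytes, 638 CPM in dividing precursors, 3287 CPM (3226 to 3348) in immature cells, 2941 CPM between stages, 1557 CPM at low Il1b and 184 CPM (175 to 193) at high Il1b. In SCD the same stages had 325, 856, 3555 (3532 to 3579), 3458, 1255 and 217 CPM (198 to 237).
At high Il1b, where Ifitm1 was highest, Ifitm6 was at its lowest value in both mice, in wild-type with an interval that overlaps that of promyelocytes (190 to 287 CPM). The log2 ratio of Ifitm6 within a stage was 0.47 (0.17 to 0.79) in promyelocytes, 0.42 (0.32 to 0.53) in dividing precursors, 0.11 (0.09 to 0.14) in immature cells, 0.23 between stages, -0.31 (-0.40 to -0.23) at low Il1b and 0.24 (0.09 to 0.38) at high Il1b. All were smaller in size than the ratio of 1.05 over all neutrophil-like cells. With total count scaling before clustering, the promyelocyte class was larger (31 and 413 cells) and its ratio -0.27. The class then named between stages (156 and 1809 cells, ratio -0.31) was close in size and leading genes to the main class with low Il1b, so it does not stand for the same cells.

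**Figure D1:**
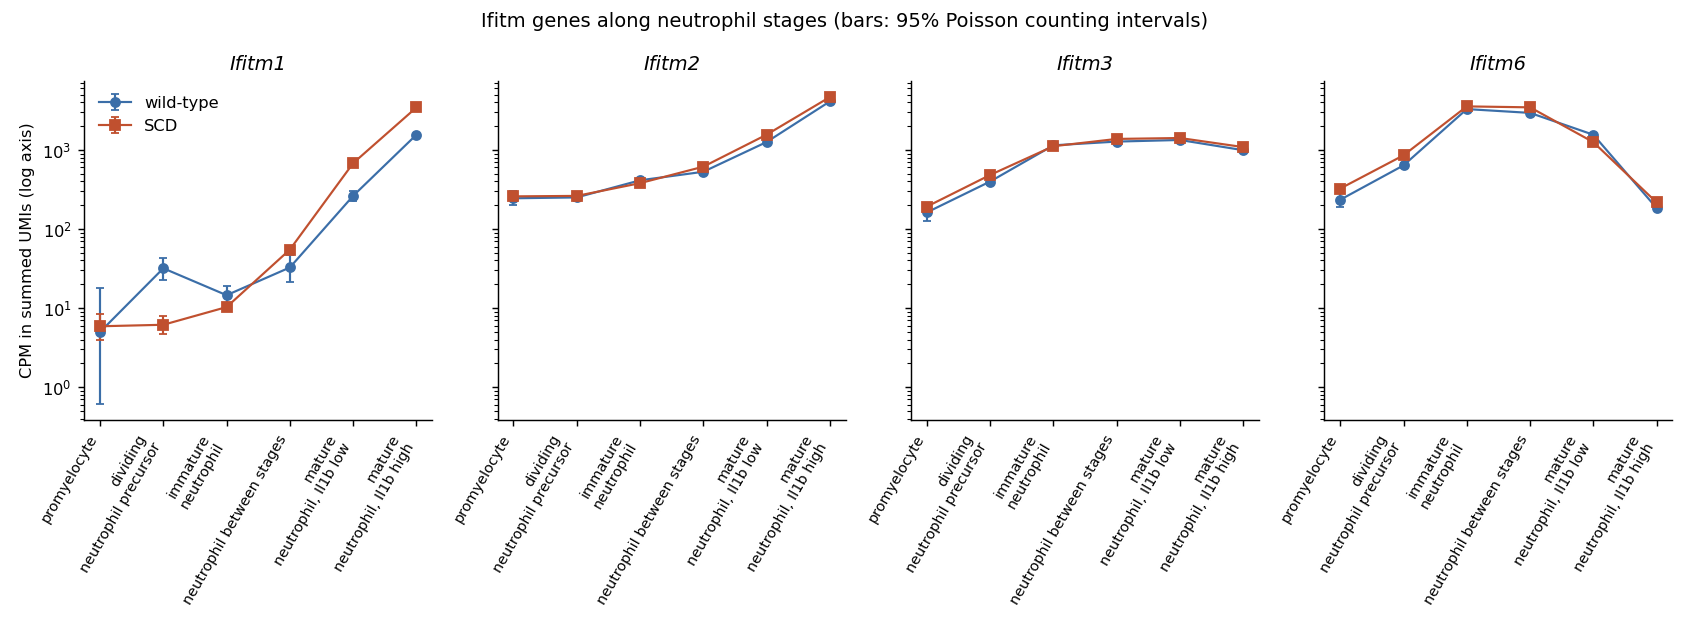
CPM (log axis) of each gene in the 6 neutrophil-like stages, early to late, for the wild-type (blue circles) and SCD (red squares) mouse, with 95% Poisson counting intervals. Ifitm1 and Ifitm2 are highest in mature cells with high Il1b, Ifitm6 in immature cells, and the libraries part for Ifitm1 in both mature classes (263 against 680 CPM and 1558 against 3447 CPM).

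The SCD library was then given the wild-type stage mix. The SCD stage levels, weighted by the wild-type share of neutrophil UMIs per stage, gave Ifitm1 at 2006 CPM against 910 CPM in wild-type, a log2 ratio of 1.14 in place of -1.90. The same weighting gave 0.18 for Ifitm2 in place of -1.84, 0.13 for Ifitm6 in place of 1.05, and 0.09 for Ifitm3. The weighted Ifitm1 level came mostly from the high Il1b class, and the part of the stage mix in the differences was not tested.

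A measure of stage that does not use the stage clusters was compared with this. It was taken within the clusters named neutrophil and used the marker lists that named them, so it is not independent of the naming. Neutrophil-like cells were put into 5 ranges of the share of mature-stage markers among all stage-marker UMIs. Below a share of 0.05, Ifitm6 was 2100 CPM in wild-type and 2125 CPM in SCD, and Ifitm1 was 18.8 and 5.95 CPM. At a share of 0.8 and over, Ifitm6 was 241 and 768 CPM and Ifitm1 was 1481 and 1443 CPM.
In that last range the log2 ratio was -0.04 (-0.07 to -0.0033) for Ifitm1, -0.72 for Ifitm2 and 1.67 for Ifitm6, so on this measure Ifitm1 was not higher in SCD, and in the range of 0.5 to 0.8 Ifitm1 was lower in SCD (483 and 232 CPM, -1.06). This measure counts Il1b among its 12 mature-stage markers but does not separate mature cells by it. Of the mature cells in the clusters above, 1928 of SCD and 157 of wild-type had low Il1b, against 987 and 3689 with high Il1b. The part of the Il1b classes in the gap between the measures was not tested. Of the 11408 neutrophil-like cells, 1350 (11.8%) lay within 0.02 of a limit between ranges.

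The mature classes of the clusters were then split by the number of Il1b UMIs per cell, and the ranges of the marker share were not. In cells with low Il1b, Ifitm1 was 155 CPM in wild-type and 424 CPM in SCD among cells with no Il1b UMI, and 412 and 1097 CPM among cells with 1 to 4. In cells with high Il1b it was 903 and 1933 CPM with no Il1b UMI, 1743 and 3740 CPM with 1 to 4, 1503 and 3332 CPM with 5 to 9, and 1547 and 3426 CPM with 10 or more.
Ifitm1 was higher in SCD in each of these 6 ranges, with log2 ratios of 1.10 to 1.45. The ratios of Ifitm2 over the same ranges were 0.04 to 0.35. Cells with low Il1b and 5 or more Il1b UMIs are not shown, because under 20 of them were wild-type.

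When cells were clustered and named again at a finer resolution, mature cells with high Il1b formed 6 clusters, which were shared unevenly. One of them, led by Ifitm1 and Steap4, held 778 SCD and 212 wild-type cells, and there Ifitm1 was 2289 CPM in wild-type and 3570 CPM in SCD, 1.56-fold higher. In the other clusters of at least 32 cells per library Ifitm1 was 1.41-, 1.58-, 1.78- and 1.99-fold higher in SCD. The last cluster had 9 SCD cells, in which Ifitm1 was lower (386 against 1649 CPM). In the clusters other than that last one the differences were smaller than the 2.21-fold difference over the whole class.

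**Figure D2:**
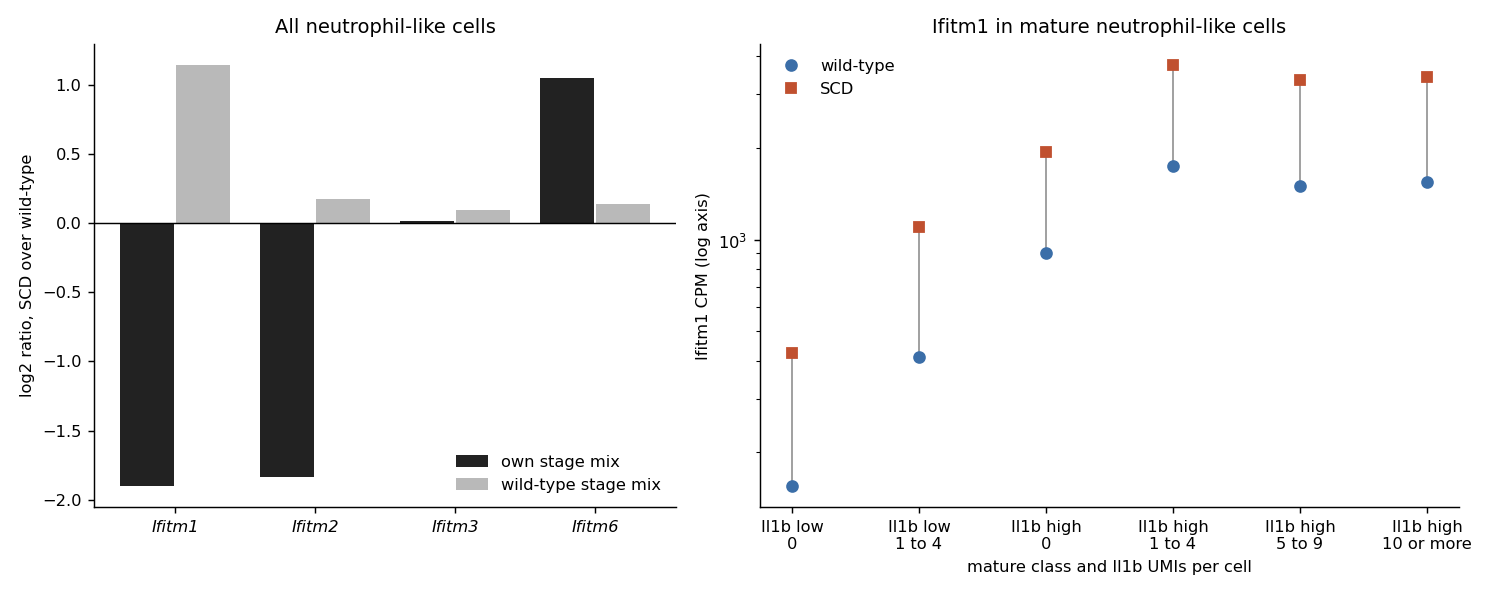
Left, log2 ratio of SCD over wild-type over all neutrophil-like cells with each library's own stage mix (black) and with the wild-type stage mix given to both (grey). Right, Ifitm1 CPM (log axis) of the wild-type (circles) and SCD (squares) mouse in mature neutrophil-like cells by class and by Il1b UMIs per cell; the SCD level is above the wild-type level in each of the 6 ranges plotted.

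The share of cells with a UMI moved like the levels. After each cell was thinned to 1000 UMIs, 47.6% of wild-type (45.9% to 49.2%, 3645 cells, 44 shallower cells left out) and 66.0% of SCD mature cells with high Il1b (63.0% to 69.0%, 980 cells, 7 left out) had an Ifitm1 UMI. Without thinning the shares were 62.1% and 75.8%. At low Il1b the thinned shares were 16.6% (11.1% to 23.3%) and 26.9% (24.9% to 28.9%), and 31.8% and 45.2% unthinned. Plasmacytoid DC-like (pDC), B cell-like and erythroid-like cells gave the background. In pDC-like cells the shares were 0.306% and 0.222%, and 6.74% and 4.65% unthinned. In B cell-like cells the thinned shares were 0% of 21 wild-type and 3.48% of 287 SCD cells. In erythroid-like cells they were 5.56% of 54 and 1.96% of 51 cells.
An Ifitm6 UMI was found in 90.0% of wild-type and 94.1% of SCD immature cells after thinning (99.7% and 99.9% unthinned), against 0.459% and 2.44% of pDC-like cells. The thinned Ifitm6 shares were 0% and 10.1% in B cell-like and 7.41% and 13.7% in erythroid-like cells. Summed immature-stage neutrophil markers in B cell-like cells were 72.6 CPM in wild-type and 5931 CPM in SCD, and their part was not tested. At low Il1b, where both genes were detected, Ifitm6 was seen in 42.5% (38.2% to 46.9%) of the SCD cells with an Ifitm1 UMI and in 58.1% (55.5% to 60.7%) of those without. In wild-type these shares were 34.6% of 26 cells and 61.1% of 131 cells. At high Il1b the shares lay close, with 20.9% (17.8% to 24.2%) and 18.0% (14.04% to 22.6%) in SCD and 15.2% (13.5% to 16.9%) and 14.6% (13.05% to 16.3%) in wild-type.

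Taken as whole cell types, monocyte-like cells carried the most Ifitm3, although in SCD the cDC2 class with Cd209a stood at 4062 CPM. Over all monocyte-like cells (1062 wild-type, 1348 SCD) Ifitm3 was 4579 CPM (4537 to 4621) in wild-type and 4017 CPM (3988 to 4045) in SCD, a log2 ratio of -0.19 (-0.21 to -0.17). Ifitm2 was 1535 and 1425 CPM (-0.11, -0.14 to -0.08), Ifitm6 788 and 697 CPM (-0.18, -0.22 to -0.14), and Ifitm1 42.2 and 52.5 CPM (0.32, 0.15 to 0.48).
None of the 4 members passed a log2 ratio of 1 in either direction, where 3.37% of the 3447 expressed genes were higher and 6.3% lower by that size and the median was -0.09. Without called doublets Ifitm1 did pass it, at 1.44. The class mix differed here too, and with the wild-type mix the ratio of Ifitm1 was -0.03 and that of Ifitm6 0.05.

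In classical monocyte-like cells (589 and 944), which carry Ly6c2 and Ccr2, Ifitm3 stood at 5340 CPM in wild-type and 4845 CPM in SCD, the highest level of any member in any class. A UMI of it was found in 98.5% and 97.5% of these cells after thinning, and in 99.8% of each library unthinned. Ifitm2 (1601 and 1694 CPM) and Ifitm6 (875 and 925 CPM) both differed by a log2 ratio of 0.08. Ifitm1 was 21.4 and 39.8 CPM, a ratio of 0.90 (0.62 to 1.18), and 1.76 without called doublets. At the finer resolution 805 SCD cells and 49 wild-type cells formed one classical cluster and 563 wild-type and 130 SCD cells another, so that different clusters hold most of the class in each library.
In non-classical monocyte-like cells (432 and 54), which patrol vessels and carry Ace and Cd300e, Ifitm3 was 3353 CPM in wild-type and 2325 CPM in SCD (-0.53, -0.63 to -0.43) and Ifitm2 1584 and 1193 CPM (-0.41, -0.56 to -0.27). Ifitm6 was 717 and 703 CPM. In these cells the mature-stage neutrophil list was 3626 and 2574 CPM (12 and 10 of 12 genes detected) and the immature-stage list 333 and 1143 CPM (9 and 9 of 11), against 3696 and 3722 CPM and 1478 and 2096 CPM in classical monocyte-like cells, and their part in the monocyte values was not tested. Ifitm1 was 92.9 CPM in wild-type and 36.4 CPM in SCD on 13 UMIs, and its log2 ratio of -1.35 was -0.06 once called doublets were left out.
Dividing monocyte-like cells (41 and 350) had Ifitm3 at 2875 and 2688 CPM, Ifitm2 at 708 and 977 CPM (0.47, 0.33 to 0.60) and Ifitm6 at 297 and 308 CPM. Ifitm1 was 14.4 CPM on 10 UMIs in wild-type and 75.1 CPM in SCD, a ratio of 2.38 (1.49 to 3.45) that was 1.04 with the Ifitm genes in the clustering and 1.10 with total count scaling.

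In conventional DC-like cells (2472 wild-type, 663 SCD) every member was higher in SCD. Ifitm1 was 99.4 CPM (95.2 to 104) in wild-type and 231 CPM (219 to 242) in SCD, a log2 ratio of 1.21 (1.12 to 1.31). Ifitm2 was 267 and 521 CPM (0.96, 0.90 to 1.02), Ifitm3 862 and 1333 CPM (0.63, 0.59 to 0.67), and Ifitm6 232 and 273 CPM (0.24, 0.16 to 0.31). In the same cells the summed immature-stage neutrophil list was 139 CPM in wild-type and 903 CPM in SCD (11 of 11 genes detected in each) and the mature-stage list 635 and 896 CPM (12 of 12), and their part in these values was not tested.
Ifitm1 alone passed a log2 ratio of 1, where 2.32% of the 3443 expressed genes were higher and 4.59% lower by that size and the median was -0.09. This rests on the processing, since Ifitm1 was 0.93 when single cells were named, and Ifitm2 was 1.06 with median-of-ratios scaling, 1.04 with equal weight per cell and 1.03 without called doublets. With the wild-type class mix the ratios were 1.95 for Ifitm1, 0.59 for Ifitm2, 0.14 for Ifitm3 and 0.38 for Ifitm6. The part of the class mix in these differences was not tested.

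Ifitm1 was higher in SCD in both cDC2 classes, the conventional DCs that present antigen mainly to CD4+ T cells. In cDC2-like cells with Clec4a4 and Dtx1 (1404 and 215 cells) it was 133 CPM (127 to 140) in wild-type and 617 CPM (580 to 657) in SCD, a log2 ratio of 2.21 (2.09 to 2.33). The alternatives tried gave 2.17 to 2.30. After thinning, 8.66% (7.24% to 10.3%) of the wild-type cells and 34.4% (28.1% to 41.2%) of those from SCD carried Ifitm1, and 27.3% and 60.5% without thinning.
In cDC2-like cells with Cd209a and Clec10a (155 and 135 cells) Ifitm1 was 15.6 CPM (10.6 to 22.1) on 31 UMIs in wild-type and 214 CPM (193 to 238) in SCD, a log2 ratio of 3.78 (3.25 to 4.36). The ratio was 2.71 at the finer resolution, 2.80 with total count scaling and 4.50 without called doublets. After thinning, 0 of 154 wild-type cells had a UMI (95% interval up to 2.37%, for cells with a UMI at that depth and not for cells that express the gene), against 17.2% (11.2% to 24.6%) of SCD cells, and the unthinned shares were 11.0% and 37.0%.
Neutrophil markers were measured beside these values. The summed mature-stage neutrophil list of 12 genes, all detected, was 513 and 541 CPM in the first cDC2 class and 1434 and 1359 CPM in the second, wild-type first. The immature-stage list of 11 genes was 130 and 989 CPM in the first class (11 and 10 genes detected) and 183 and 861 CPM in the second (10 and 10 detected). As a percent of the level in all neutrophil-like cells of the same library, Ifitm1 was 14.7% in wild-type and 254% in SCD in the first class. In the second class it was 1.71% and 88.1%. The mature-stage list stood at 1.73% and 2.87% in the first class and at 4.85% and 7.22% in the second. The immature-stage list stood at 0.257% and 1.003%, and at 0.360% and 0.873%. Over all SCD neutrophil-like cells Ifitm1 was 243 CPM, against 3447 CPM in those with high Il1b. The part of neutrophil RNA in these Ifitm1 values was not tested. In pDC-like cells Ifitm1 was 6.26 and 5.91 CPM (-0.08, -0.88 to 0.67).

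The other members moved less in the cDC2 classes. Ifitm2 was 215 and 381 CPM (0.83, 0.70 to 0.95) in the class with Clec4a4 and 1025 and 1379 CPM (0.43, 0.34 to 0.51) in the class with Cd209a. Ifitm3 was 806 and 852 CPM (0.08, -0.0040 to 0.16) and 3307 and 4062 CPM (0.30, 0.25 to 0.35), and Ifitm6 was 314 and 377 CPM (0.26) and 433 and 604 CPM (0.48).
The cDC2 class with Cd209a had levels of Ifitm2 and Ifitm3 nearer to all monocyte-like cells than to the other DC classes, and its Ifitm6 level lay between those of the cDC2 class with Clec4a4 and all monocyte-like cells. Its 10 classical monocyte markers summed to 12606 CPM in wild-type and 8171 CPM in SCD, against 39746 and 34046 CPM in classical monocyte-like cells and 1379 and 1455 CPM in the cDC2 class with Clec4a4.

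In cDC1-like cells (167 and 209), the cross-presenting DCs with Xcr1, Ifitm1 was 25.3 and 58.4 CPM (1.21, 0.79 to 1.64) and Ifitm3 407 and 312 CPM (-0.38, -0.51 to -0.26). The Ifitm3 ratio turned to 0.37 with the Ifitm genes in the clustering. Ifitm2 was 162 and 198 CPM and Ifitm6 49.8 and 61.4 CPM, beside an immature-stage neutrophil list of 92.9 and 794 CPM (9 and 11 genes detected).
In mature DC-like cells (620 and 86), which carry Ccr7, Ifitm3 was 178 and 118 CPM (-0.59, -0.99 to -0.21), Ifitm2 128 and 124 CPM, and Ifitm1 63.0 and 101 CPM (0.68, 0.22 to 1.11), beside a mature-stage neutrophil list of 660 and 1520 CPM. Ifitm6 was 29.3 and 103 CPM, a log2 ratio of 1.81 (1.31 to 2.29).
In pDC-like cells (653 and 452) all 4 members were low, with Ifitm2 at 21.1 and 30.3 CPM and Ifitm3 at 40.1 and 58.8 CPM. Ifitm6 was 7.37 and 35.2 CPM, a log2 ratio of 2.26 (1.79 to 2.74).
The immature neutrophil list moved with Ifitm6 in these last 2 classes, from 183 CPM in wild-type to 1373 CPM in SCD in mature DC-like cells (11 of 11 genes detected in each) and from 109 to 907 CPM in pDC-like cells (10 and 11 detected). As a percent of the level in all neutrophil-like cells of the same library, Ifitm6 in pDC-like cells was 0.656% and 1.52% and the list 0.215% and 0.92%. The part of neutrophil RNA in these Ifitm6 values was not tested. Dividing conventional DC-like cells (126 and 18) had Ifitm1 at 193 and 170 CPM, with overlapping intervals, and Ifitm3 at 578 and 778 CPM.

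**Figure D3:**
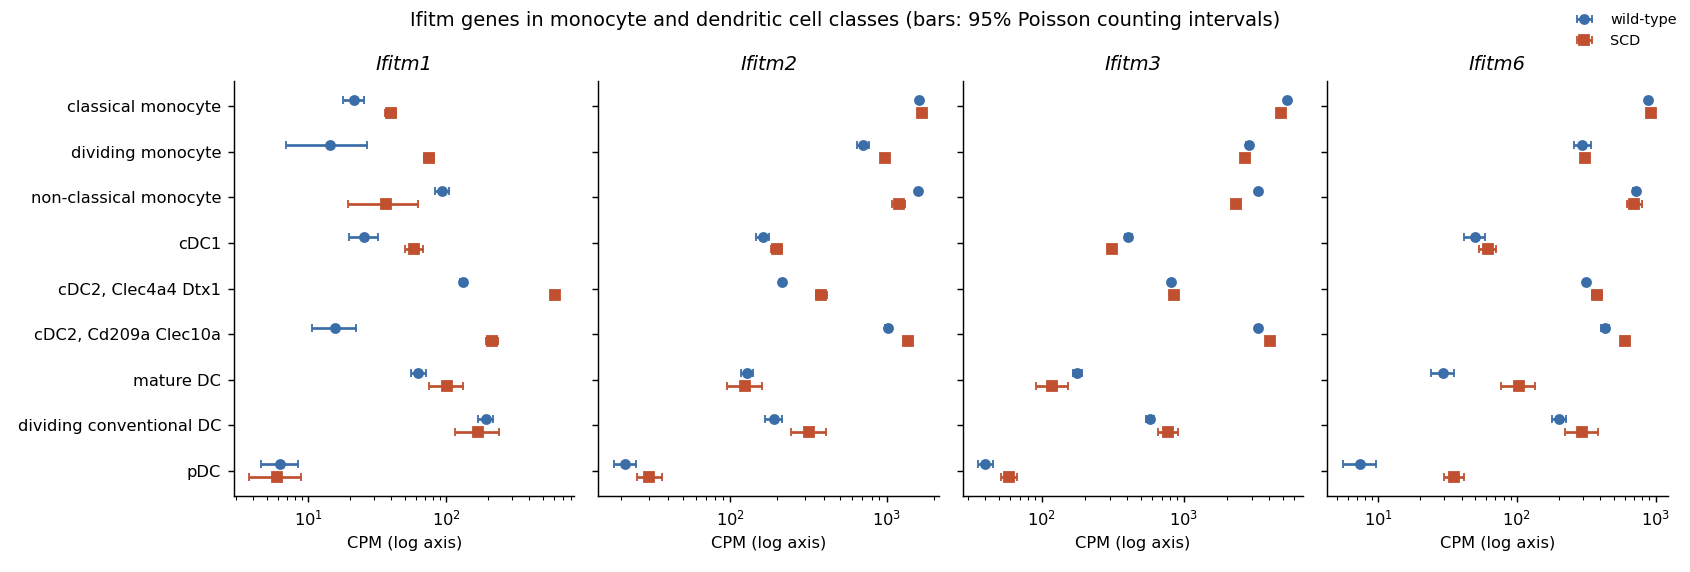
CPM (log axis, own scale per gene) of each gene in the monocyte-like and DC-like classes of the wild-type (blue circles) and SCD (red squares) mouse, with 95% Poisson counting intervals. Ifitm3 is highest in classical monocytes in both mice, and for Ifitm1 the SCD level is above the wild-type level in both cDC2 classes (133 against 617 CPM and 15.6 against 214 CPM).

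**Figure D4:**
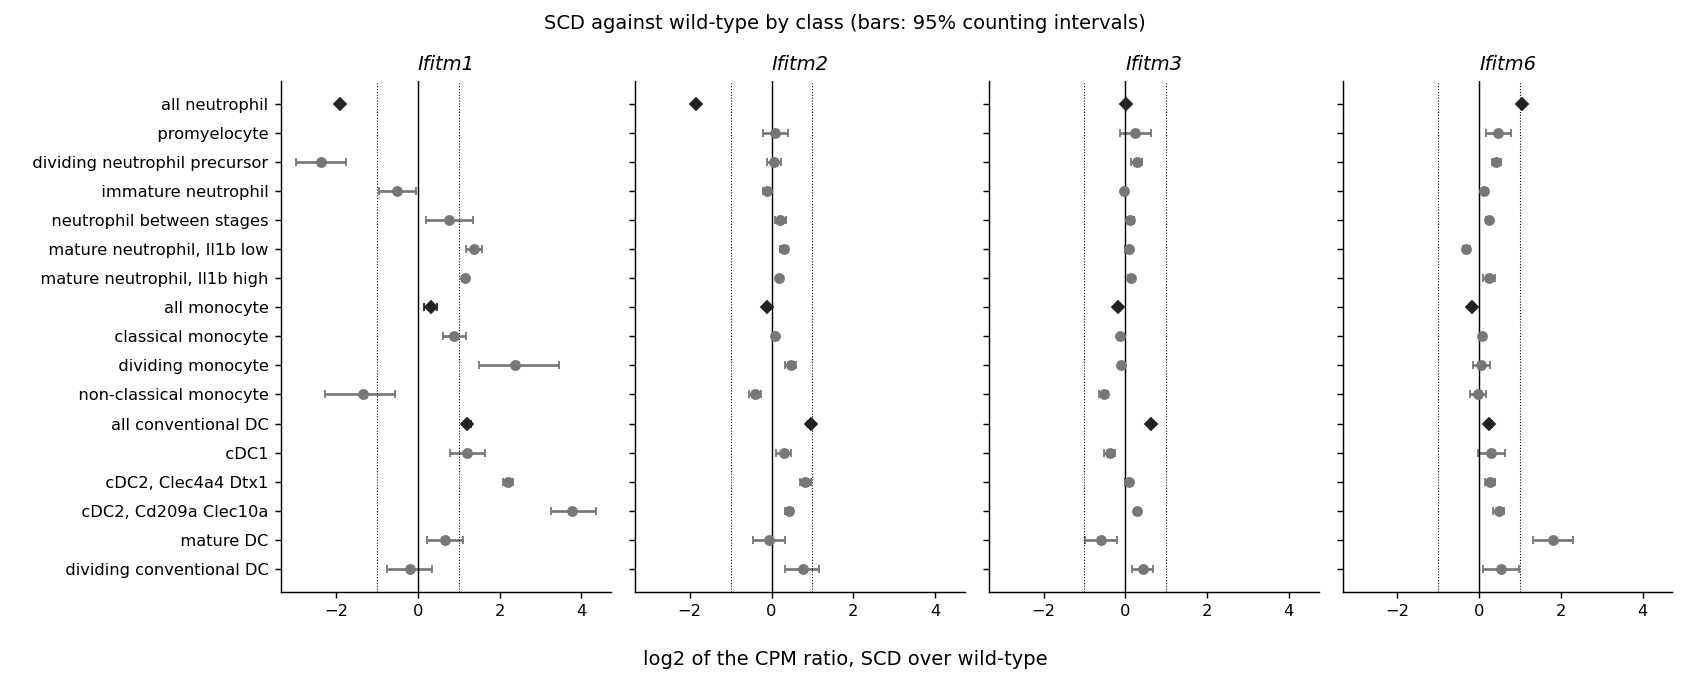
log2 ratio of SCD over wild-type of each gene in all neutrophil-like, monocyte-like and conventional DC-like cells (black diamonds) and in their classes (grey circles), with 95% counting intervals; dotted lines mark -1 and 1. For Ifitm1 the diamond of all neutrophil-like cells (-1.90) lies opposite to the circles of the mature classes (1.37 and 1.15), and every plotted value of Ifitm3 lies between the dotted lines.

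The classes ordered differently for each member. For Ifitm1 the order from the top was mature neutrophils with high Il1b and then those with low Il1b. In SCD, cDC2 with Clec4a4 and cDC2 with Cd209a followed, and the interval of the latter overlapped that of dividing conventional DCs (170 CPM). In wild-type, dividing conventional DCs followed the mature neutrophils (193 CPM), and the intervals of neighbours from rank 7 to rank 14 overlapped. For Ifitm2 both libraries had mature neutrophils with high Il1b first and classical monocytes second, where the wild-type interval overlapped that of non-classical monocytes. For Ifitm3 classical monocytes were first in both libraries. For Ifitm6 immature neutrophils were first and cells between stages second in both.

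As shares of the UMIs of all 4 genes, Ifitm6 took 67.6% in wild-type and 70.3% in SCD immature neutrophils. In mature neutrophils with high Il1b Ifitm2 took 60.02% and 49.5%, and Ifitm1 22.8% and 36.6%. In classical monocytes Ifitm3 took 68.1% and 64.6%, and in cDC2 with Clec4a4 the share of Ifitm1 was 9.08% in wild-type and 27.7% in SCD. The summed level of the family was 6840 and 9409 CPM in mature neutrophils with high Il1b, 7838 and 7503 CPM in classical monocytes, and 74.8 and 130 CPM in pDC-like cells. The leading member was the same in both mice in each of these 4 classes. In mature neutrophils with low Il1b it differed, with Ifitm6 at 35.3% and Ifitm3 at 30.3% in wild-type, and Ifitm2 at 31.7% and Ifitm3 at 28.8% in SCD. In promyelocytes Ifitm2 (37.8%) and Ifitm6 (36.3%) overlapped in wild-type, and Ifitm6 (41.6%) led Ifitm2 (33.1%) in SCD. In mature DCs Ifitm3 (44.6%) led in wild-type. In SCD the intervals of all 4 members overlapped there (Ifitm2 27.8%, Ifitm3 26.5%, Ifitm6 23.0% and Ifitm1 22.6%).

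**Figure D5:**
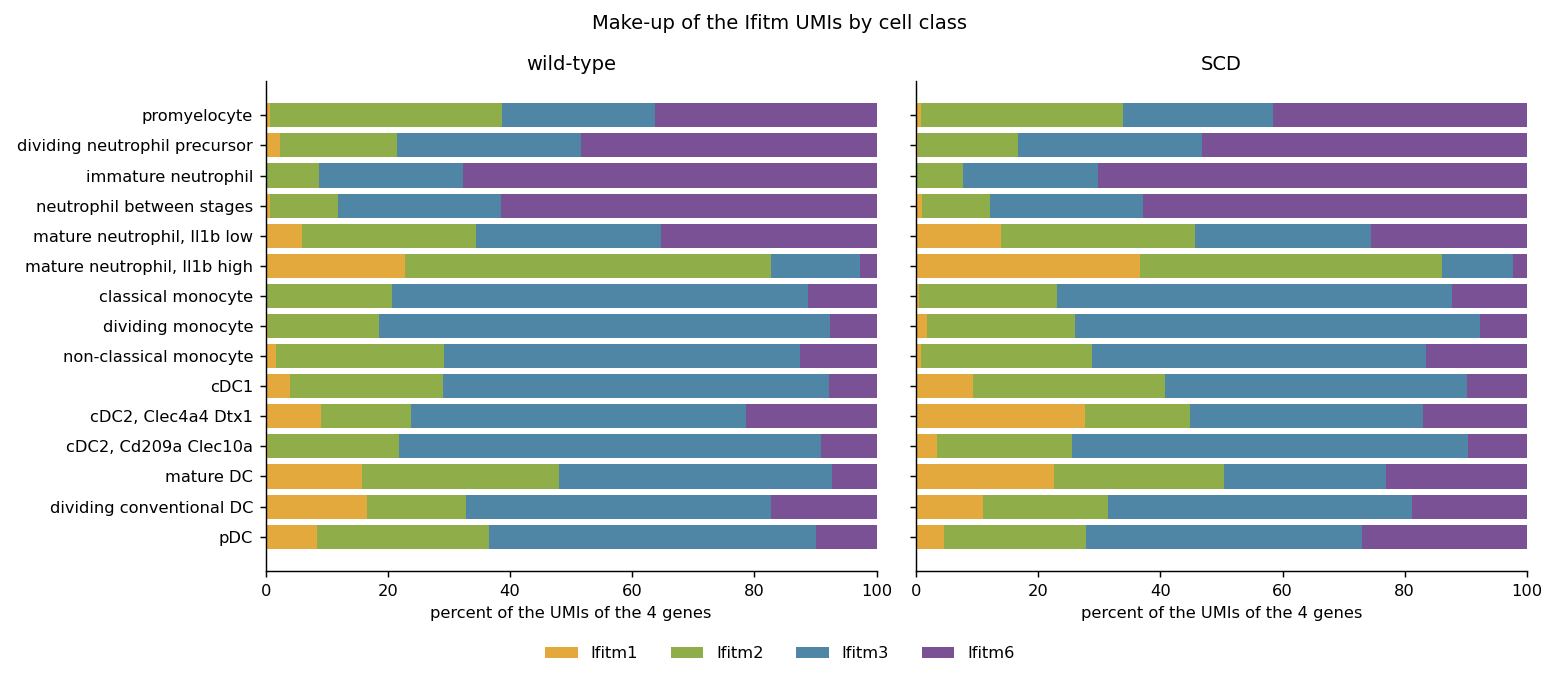
Percent of the UMIs of the 4 genes that each gene takes in each class, wild-type on the left and SCD on the right. Ifitm6 (purple) leads in immature neutrophils, Ifitm2 (green) in mature neutrophils with high Il1b and Ifitm3 (blue) in monocytes, and the share of Ifitm1 (orange) is larger in SCD in both mature neutrophil classes.

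The wider interferon pathway was counted from fixed lists. Of 36 interferon-stimulated genes, 10 were expressed in neutrophil-like cells, and 7 of these were lower and none higher by at least 1 on the log2 scale, with a median of -1.44, against 22% lower and a median of -0.41 over all expressed genes of the class. Isg15, a ubiquitin-like modifier, was 131 CPM in wild-type and 25.9 CPM in SCD (-2.33), Oasl2 149 and 40.5 CPM (-1.88), the antiviral enzyme Rsad2 65.5 and 18.6 CPM (-1.82), the exonuclease gene Isg20 51.8 and 16.1 CPM (-1.69), and Ifi27l2a 696 and 242 CPM (-1.52).
In the mature classes the counts were different. In mature cells with high Il1b, 14 of the 36 genes were expressed, none passed a log2 ratio of 1 (1.63% higher and 0.815% lower over all expressed genes) and the median was 0.20, and at low Il1b 10 were expressed, 1 was higher (Oasl2, 61.9 and 124 CPM, 1.004), none was lower (1.32% and 0.78% over all expressed genes) and the median was 0.18, against medians of -0.05 over all expressed genes in both classes. Isg15 was 212 and 197 CPM and Ifi27l2a 1115 and 1414 CPM at high Il1b. In monocyte-like cells (15 expressed, median -0.24) and conventional DC-like cells (7 expressed, median 0.14) none passed in either direction, where 3.37% and 2.32% of all expressed genes were higher and 6.3% and 4.59% lower, so nothing is read from these counts.

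Of 11 genes of interferon receptors and their signal, 9 were expressed in neutrophil-like cells and 4 were lower, with a median of -0.97, again beside 22% lower and -0.41 over all expressed genes. The 4 were the transcription factor gene Irf1 (153 and 37.4 CPM, -2.03), the type I receptor gene Ifnar1 (72.3 and 23.1 CPM, -1.64), the kinase gene Jak2 (59.9 and 27.6 CPM, -1.12) and the type II receptor gene Ifngr1 (127 and 60.4 CPM, -1.07). Irf1 was also lower in monocyte-like cells (93.5 and 36.2 CPM, -1.37), as the 1 of 11 expressed genes of the list past that size there, beside 6.3% of all expressed genes, and no gene of the list passed within the classical, dividing or non-classical class. None of the 11 passed over all conventional DC-like cells. Within their classes 1 of 11 was lower in cDC2 with Cd209a and 1 of 10 in dividing cells, and none passed in the others. Within the mature neutrophil classes 9 and 7 of the list were expressed at high and low Il1b and none passed in either direction, where few of all expressed genes did (1.63% higher and 0.815% lower at high Il1b, 1.32% and 0.78% at low Il1b). None of 9 interferon genes was expressed in any neutrophil, monocyte or DC class, the highest being Ifnk with 4 UMIs in wild-type monocyte-like cells.
Of 7 genes whose proteins act on or with IFITM proteins, Zmpste24, a membrane protease that works with IFITMs, was higher in SCD neutrophil-like cells (132 and 272 CPM, 1.04), and Zdhhc20, a palmitoyl transferase, was lower (90.7 and 45.3 CPM, -1.001). The tetraspanin gene Cd9 was lower in monocyte-like cells (169 and 29.4 CPM, -2.52) and the ubiquitin ligase gene Nedd4 in conventional DC-like cells (242 and 121 CPM, -1.003). These were 1 higher and 1 lower of 7 expressed genes in neutrophil-like cells (2.29% and 22% over all expressed genes), 1 lower of 4 in monocyte-like cells (6.3%) and 1 lower of 6 in conventional DC-like cells (4.59%). Within each of the 6 neutrophil stages none of the list passed in either direction. Within each monocyte class none was lower, and 1 of 5 expressed genes was higher in non-classical cells. Among the DC classes, 2 of 6 were lower in cDC2 with Cd209a and 1 of 5 was higher in mature DCs, and none passed in the others. Nothing is read from these counts.

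Patterns like those of the members were sought over 32 units (a class in a library, at least 50 cells each) among 6660 genes, by Pearson correlation of log2(CPM + 5). The units share libraries and depth, so the values are descriptions. Nearest to Ifitm1 were Cd101 (0.87), Cass4 (0.84), Mpzl3 (0.82), Rab11fip4 (0.78) and Retn (0.78). Nearest to Ifitm2 was Eif4ebp1 (0.91), followed by Clec7a, Slfn2, Cd300lb and Emilin2 (0.88 to 0.87). Nearest to Ifitm3 were Gpr141 (0.91), Oas1a (0.86), Add3, Smpdl3a and Gm9733 (0.84 to 0.81). Nearest to Ifitm6 were Itgam (0.90), Nhsl2 (0.90), Ltb4r1, Mapk3 and Tkt (0.87 to 0.84).
Among the members, Ifitm2 and Ifitm3 were the closest pair (0.85) and Ifitm3 and Ifitm6 followed (0.70), whereas Ifitm1 correlated with Ifitm2 (0.58) more than with Ifitm3 (0.30) or Ifitm6 (0.09).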

How the data were processed

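Spleen cells of 1 wild-type and 1 SCD mouse were analysed, each a 10x Chromium 3′ library. The authors deposited raw UMI counts per gene and cell, made with Cell Ranger 4.0.0 on GRCm38.p6 per the submitters' processing notes, which also name R 4.4, Seurat 3.2.3 and Scanpy 1.6.0. The members and gene lists were chosen with earlier results of these data known, and the limits of the naming rule were set after the clusters were seen.

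Following the study's methods, cells with under 500 or over 5000 genes, over 15% mitochondrial or over 30% ribosomal counts were left out (the methods print the last 2 limits with the sign reversed, which was read as a misprint), as were genes in fewer than 20 cells for clustering. Counts were scaled with scran 1.30.0 and clustered with Scanpy 1.11.5 (2003 variable genes without Ifitm genes, 30 components, 15 neighbours, Leiden resolution 1). Clusters were named by the marker list with the highest score, leading the next by at least 0.05. A cluster of 143 wild-type and 137 SCD cells was left unnamed as mixed, although the basophil or mast cell list led there (0.97, against 0.73 for progenitors). Of the kept cells, 357 wild-type and 205 SCD cells (3.79% and 1.93%) were called doublets. Clusters with over 40% called doublets were left unnamed, and the called doublets in named classes were kept in the main values. Mature neutrophil clusters were split by their Il1b level, at 0.5 of the highest cluster.

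Levels are summed counts per 1000000 counts of the class (CPM). A ratio uses at least 3 counts a side, and since each group is 1 animal no test was run. Genes named beside the members were the 5 most correlated with each, and list genes past a log2 ratio of 1, at most 5 in each direction. The ratio script was tested on simulated counts. Alternatives were median-of-ratios scaling, a pseudocount of 5 CPM, doublets removed, at least 1000 genes per cell, equal weight per cell, resolution 2, total count scaling, Ifitm genes in the clustering, naming of single cells, and stage or class mixes. The Il1b ranges, the finer clusters and the class mix of monocytes and DCs were added after seeing the data.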

Additional observations from a re-analysis of the deposited data

Results flagged for a closer look

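Differences in sign between cell types drew a closer look. Ifitm1 had a log2 ratio of SCD over wild-type of -1.90 in neutrophil-like, 0.32 in monocyte-like and 1.21 in conventional DC-like cells. Ifitm2 had -1.84, -0.11 and 0.96 in the same order. Ifitm3 had -0.19 in monocyte-like and 0.63 in conventional DC-like cells. Ifitm6 had 1.05 in neutrophil-like, -0.18 in monocyte-like and 0.24 in conventional DC-like cells. With 1 mouse per group the difference between cell types was not tested.

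Cells with over 5000 genes were outside every comparison, following the study's filter, and held 295 wild-type and 1220 SCD cells that passed the other filters. No class was assigned to these cells, and no intervals were made. Ifitm2 was close in both libraries, at 427.0 CPM in SCD and 420.6 CPM in wild-type. The SCD levels were above the wild-type levels for Ifitm1 (55.5 and 33.9 CPM), Ifitm3 (570.4 and 321.1 CPM) and Ifitm6 (122.9 and 36.5 CPM). All were below the levels of the kept cells of the same library.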

How the results depend on the processing

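No paired analysis was possible because wild-type and SCD hold 1 mouse each. Of 120 alternative log2 ratios over the broad classes, 62 stayed within the counting interval of the main value, 54 moved and 4 changed sign; over the fine classes 356 of 424 stayed, 63 moved and 5 changed sign. Of 48 alternative shares of cells 47 moved, as they depend on the depth of thinning. Replicate error is unknown, low counts limit Ifitm1 in early neutrophils, monocytes, cDC1 and the wild-type cDC2 with Cd209a (31 UMIs), and the cause of each shift below was not tested unless the alternative itself fixes the mix.

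Giving both libraries the wild-type mix gave, in neutrophil-like cells, 1.14 for Ifitm1, 0.18 for Ifitm2, 0.090 for Ifitm3 and 0.13 for Ifitm6; in monocyte-like cells -0.034, -0.038, -0.21 and 0.051; and in conventional DC-like cells 1.95, 0.59, 0.14 and 0.38. Median-of-ratios scaling gave -1.49, -1.43, 0.42 and 1.45 in neutrophil-like cells (a shift of all genes), -0.015 (Ifitm2), -0.097 (Ifitm3) and -0.084 (Ifitm6) in monocyte-like cells, and 1.06 (Ifitm2), 0.72 (Ifitm3) and 0.33 (Ifitm6) in conventional DC-like cells. Equal weight per cell gave -0.90, -1.42, 0.18 and 2.02; 0.079, -0.060, -0.074 and -0.066; and 1.54, 1.04, 0.74 and 0.38. Naming single cells gave -1.82 (Ifitm1), -1.76 (Ifitm2) and 0.97 (Ifitm6); 0.57 (Ifitm1), -0.16 (Ifitm3) and -0.097 (Ifitm6); and 0.93, 0.62, 0.41 and 0.34. At least 1000 genes per cell gave -2.07 (Ifitm1), -1.69 (Ifitm2) and 0.69 (Ifitm6) in neutrophil-like cells, and resolution 2 gave -1.78 (Ifitm2) and 0.97 (Ifitm6). Without called doublets Ifitm1 was 1.44 and Ifitm3 -0.22 in monocyte-like cells, and Ifitm2 was 1.03 and Ifitm3 0.68 in conventional DC-like cells. Total count scaling gave -0.14 (Ifitm2), -0.23 (Ifitm3) and -0.064 (Ifitm6) in monocyte-like cells, and the Ifitm genes in the clustering gave 0.59 (Ifitm3) and 0.48 (Ifitm6) in conventional DC-like cells.

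Sign changes in fine classes were Ifitm6 in promyelocytes (-0.27), Ifitm1 in immature neutrophils (0.12) and Ifitm6 between stages (-0.31) with total count scaling, where these names cover other cells than in the main clustering (31 and 413 promyelocytes, and between stages a cluster like the main low Il1b class), Ifitm3 between stages (-0.088) at resolution 2, and Ifitm3 in cDC1 (0.37) with the Ifitm genes in the clustering. Without the minimum of 50 CPM, the genes past a log2 ratio of 1 numbered 814 higher and 1865 lower in neutrophil-like cells (57 and 549 with it), 731 and 742 in monocyte-like cells (116 and 217), and 398 and 948 in conventional DC-like cells (80 and 158).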

Other observations

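One cluster of mature neutrophil-like cells with high Il1b at the finer resolution was led by the interferon-stimulated genes Ifit1, Isg15 and Rsad2, and held 538 wild-type and 32 SCD cells. Ifitm3 was 1831 CPM in wild-type and 1886 CPM in SCD there, against 622 to 1165 CPM in the other 5 clusters of the class. Ifitm1 was 1364 and 2154 CPM in the same cluster, within the range of the other clusters in wild-type (1188 to 2289 CPM). Ifitm2 was 3671 and 3733 CPM, against 3654 to 6048 CPM in the others. These values describe cells that were clustered on the leading genes and were not tested.

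Red pulp macrophage-like cells (275 wild-type, 154 SCD), which clear old red cells, had Ifitm3 at 431 CPM (379 to 488) in wild-type and 221 CPM (178 to 272) in SCD, a log2 ratio of -0.96 (-1.33 to -0.61). Ifitm2 was 182 and 228 CPM and Ifitm6 91.7 and 82.6 CPM there, with overlapping intervals, and Ifitm1 had 5 and 4 UMIs. The mature-stage neutrophil list was 5901 and 1927 CPM in these cells, and its part in these values was not tested.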
